A study of Drosophila melanogaster with 6 samples.

Results

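The genes described here encode the vacuolar proton ATPase (V-ATPase) of Drosophila melanogaster, and they were taken as all genes whose symbol starts with Vha. Of 33 such genes in RefSeq, 31 had a probe set that names them alone, out of 11982 genes measured in all. Vha68-1 and Vha68-2, both genes for the catalytic A subunit, had no such probe set and were not analysed here. Vha16-1 had 2 probe sets and each of the other measured genes had 1, and the brighter probe set of Vha16-1 was used.

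RNA was measured in S2 cells, an embryonic fly line with features of phagocytic blood cells, on 6 Affymetrix arrays in 2 groups of 3. Wild type cells served as S2 control. Cells of the second group carry dBigH1::FLAG, a tagged embryonic linker histone, and were labelled as induced. They had been kept in 0.3 mg/ml hygromycin B, but for the experiment they were grown in the medium of the S2 cells. Cells of both groups received 1 mM copper sulphate for 24 h, so the metal was present in the controls too. The labels name neither the promoter of dBigH1::FLAG nor the number of clones in that line. The effect of dBigH1 and any other difference between the lines cannot be told apart, and since separate cultures are not stated, the spread behind the p-values may be technical.

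The V-ATPase is a rotary pump that spends ATP to move protons into lysosomes, endosomes and secretory vesicles. Its cytosolic sector, V1, holds the ATP-splitting head (subunits A and B), the central rotor (D and F), the outer stalks (E and G) and the regulatory subunits C and H. Its membrane sector, V0, holds the proteolipid ring (c and c″) through which protons pass, the large subunit a that forms the proton path beside the ring, and the subunits d and e. Fly genomes carry several copies of many subunit genes, of which some serve most cells and others are known chiefly from single tissues such as testis or gut. In phagocytic blood cells the pump acidifies phagosomes and lysosomes, and at the lysosome it also takes part in amino acid sensing by TORC1.

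BigH1 itself read 4.86, 5.42 and 5.30 in S2 control and 13.47, 13.47 and 13.43 in induced cells, on the log2 scale of the array signal. The labels and the induced gene therefore went the same way. The array medians lay between 6.31 and 6.33, and Pearson's r, taken over probe sets that are no independent replicates of each other, was 0.998 to 0.999 within groups and 0.993 between groups. Rose and fell stand for an adjusted p under 0.05 in limma. Of all genes 14.5% rose and 16.0% fell, and of those above the median probe set signal 21.1% and 21.3%. Of 12 S2 and haemocyte markers, 12 stood above the median probe set signal, 6 rose and 3 fell. The summed linear signal of these markers was 22803 to 23615 in S2 control and 27898 to 28497 in induced cells. This sum follows its brightest probe sets, Pxn and Col4a1, which rose, while Sr-CI, He and NimC1 fell. It does not describe the list. Of 12 testis markers 4 stood above the median, 1 rose (bam) and 1 fell (topi). Their summed signal was 2230 to 2285 in S2 control and 2430 to 2564 in induced cells. This sum follows bright probe sets such as that of bam, while 6 of the 12 log2 changes were below 0 and 6 above. Of 5 measured gut and tubule markers 3 stood above the median and 3 fell. Their summed signal was 8567 to 9085 in S2 control and 6996 to 7184 in induced cells. That sum follows the single bright probe set of Tsp42Ed and does not describe the list. All 5 measured neuron markers also stood above the median, so a place above it does not tell these cell types apart. Among them 0 passed in limma and 0 had an unadjusted p under 0.05. Of all 6984 genes above the median, 3739 had such a p. The summed signal of the 5 neuron markers was 1761 to 1950 in S2 control and 1744 to 1778 in induced cells. The signal of the actin control Act5C at its 5′ end minus its 3′ end, a sign of RNA quality, was -1.36 to -1.20 in S2 control and -1.87 to -1.71 in induced cells. The same measure was -0.50 to -0.47 and -0.62 to -0.53 for GAPDH, and -1.97 to -1.90 and -1.79 to -1.70 for the second GAPDH series, which moved the opposite way, so the 3 controls showed no common shift. The part of these shifts in the results below was not tested.

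The V-ATPase genes fell into a bright and a dim set. The platform holds 17 tag control probe sets, made for synthetic tags and not for fly transcripts, and these gave log2 signals of 3.14 to 6.32. Of the 31 genes, 15 had mean signals of 10.9 to 13.0, far above the tags, and between them they covered subunits B, C, D, E, F, G and H of V1, subunits a, c, c″, d and e of V0 and the accessory protein Ac45. The A subunit had no gene in this set, and Vha68-3 was its only gene measured. Vha36-3, a further D gene, followed at 6.92. The other 15 genes had mean signals of 3.63 to 5.95, which is inside the range of the tags, so whether their transcripts were present could not be read from these arrays. Signals of different probe sets are not on a common scale, and each is set here only against the range of the tags. Some genes of the bright and the dim set lie side by side in the RefSeq gene order: Vha100-2 follows Vha100-4 directly, and 1 gene separates VhaPPA1-1 from VhaPPA1-2.

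**Figure D1:**
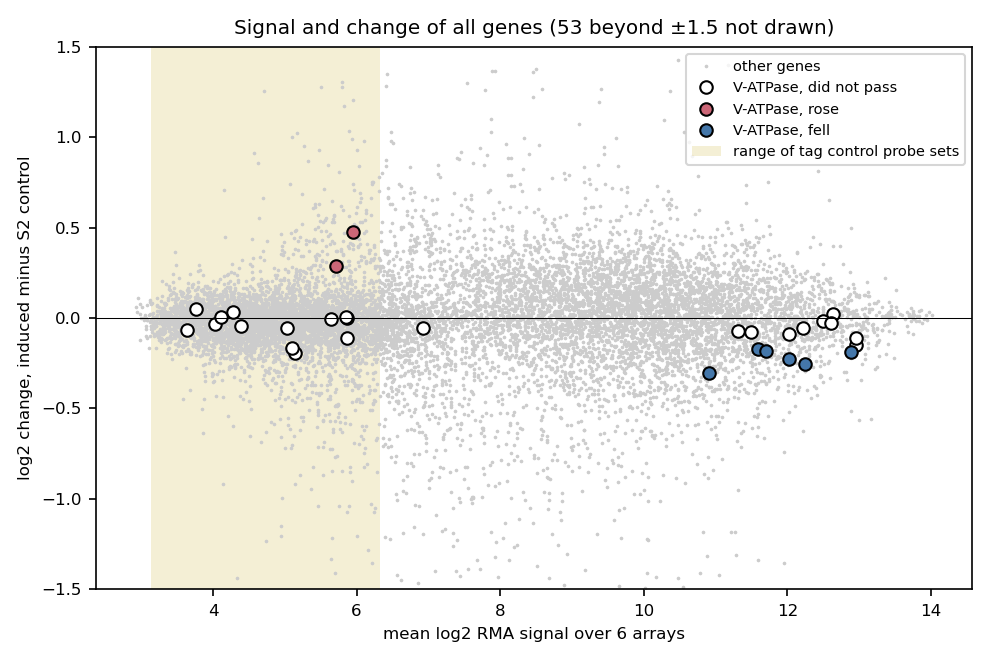
Mean log2 RMA signal over 6 arrays (horizontal) against the log2 change, dBigH1 induced minus S2 control (vertical), for all genes (grey) and for the 31 V-ATPase genes (circles, filled where they passed). The shaded band is the range of the tag control probe sets, 3.14 to 6.32. The 6 genes that fell lie right of it and the 2 that rose lie inside it.

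Between the groups, 6 V-ATPase genes fell and 2 rose in induced cells, and all of these changes were small. A gene rose or fell here where limma gave an adjusted p under 0.05 over all probe sets. The falls ran from 0.17 to 0.30 on the log2 scale, which is 1.13-fold to 1.23-fold lower signal, and they were those of VhaM9.7-c, VhaAC45, Vha100-1, VhaM9.7-b, VhaSFD and Vha44, all in the bright set. The rises were those of Vha100-5 and Vha14-2, both in the dim set. Together 8 of 31 genes passed (25.8%), while 30.5% of all genes passed, so a change was about as common among V-ATPase genes as elsewhere. By direction, 19.4% of V-ATPase genes fell beside 16.0% of all genes, and 2 of 31 rose beside 14.5%. The median log2 change was -0.06 over the 31 genes and -0.01 over all genes. The median size of the change, regardless of direction, was 0.07 and 0.11. Every induced array was below every control array for 13 of the 31 genes (23.6% of all genes) and above every control array for 2 (21.8% of all genes).

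Genes above the median probe set signal of 6.33 passed more often (42.3%) than genes below it (14.0%), so the V-ATPase genes were also counted on each side. Above it lay 16 V-ATPase genes. In limma 6 of them fell (37.5%), 0 rose and 10 did not pass. Of all genes above the median 21.3% fell and 21.1% rose. At an unadjusted p under 0.05 in limma, 7 of the 16 were lower and 0 higher, the further one being Vha16-1. Of all 6984 genes above the median, 1828 were lower and 1911 higher at that p. The median log2 change of these 16 genes was -0.10, against 0.01 for all genes above the median, and 15 of 16 values were below 0, where 48.0% of all genes above the median were, and a further quantile normalisation turned that of Vha55 to 0.0072. For 11 of the 16, every induced array was below every control array, which held for 29.6% of all genes above the median. Below the median, 2 of 15 V-ATPase genes rose (background 5.34%) and 0 fell in limma (background 8.66%). At an unadjusted p under 0.05, 2 of the 15 were higher and 2 lower. Of all 4998 genes below the median, 408 were higher and 688 lower at that p. In the 15 genes with a signal above 10, the mean log2 signal per array was 12.20, 12.21 and 12.19 in S2 control and 12.07, 12.06 and 12.09 in induced cells.

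**Figure D2:**
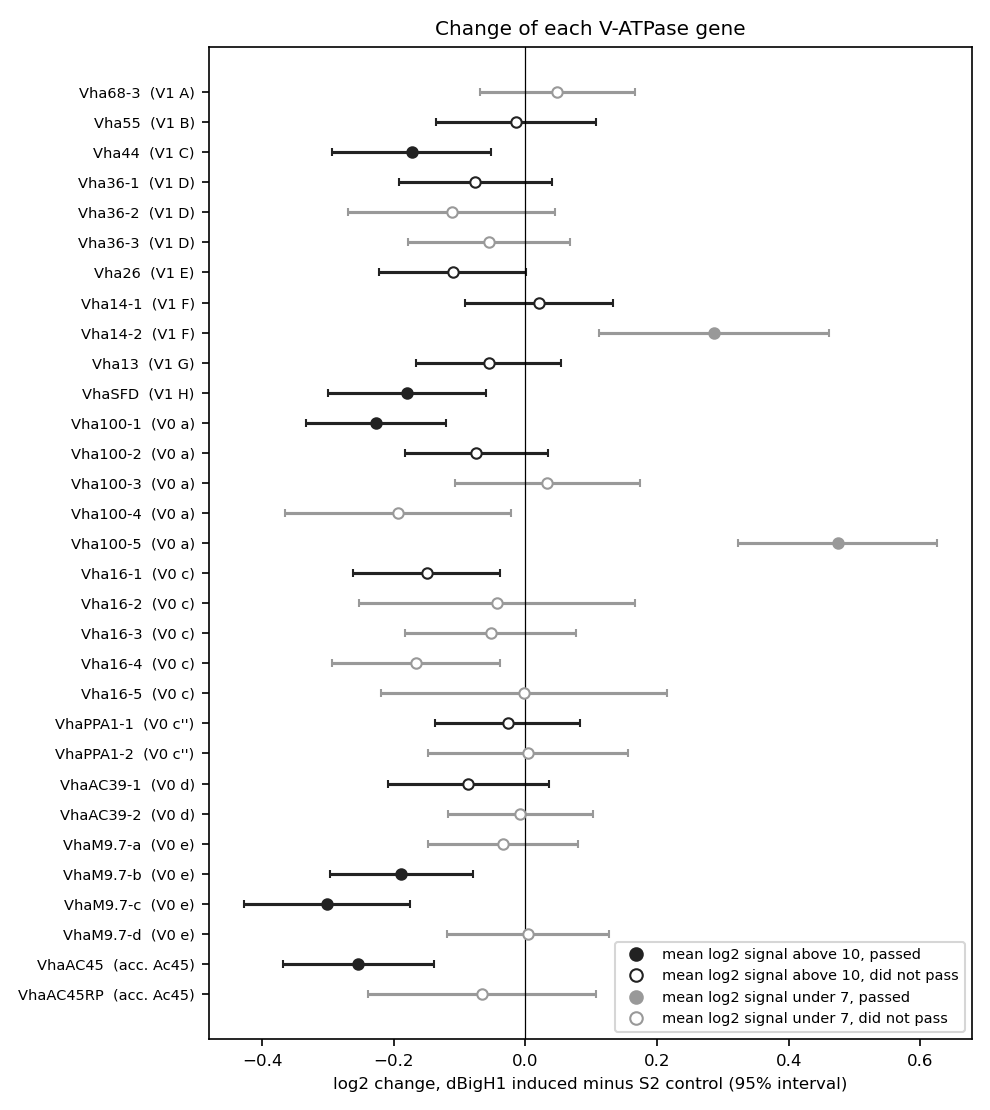
Log2 change of each V-ATPase gene, dBigH1 induced minus S2 control, with its 95% interval from limma (3 arrays per group), grouped by sector and subunit (acc., accessory). Filled points passed at an adjusted p under 0.05. The black points, genes with a mean signal above 10, lie between -0.30 and 0.02, and the rises at the right belong to Vha14-2 and Vha100-5, in grey.

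In the membrane sector, VhaM9.7-c, a gene for the small e subunit, gave the largest fall. The e subunit is a short hydrophobic protein of V0, and 4 fly genes for it were measured. VhaM9.7-c read 10.98, 11.12 and 11.09 in S2 control and 10.72, 10.79 and 10.77 in induced cells. The groups did not overlap, and the gene fell by 0.30 (SE 0.06, adjusted p = 0.00305), 1.23-fold. VhaM9.7-b read 12.98, 13.00 and 12.98 in S2 control and 12.77, 12.82 and 12.81 in induced cells. It fell by 0.19 (SE 0.05, adjusted p = 0.0161), with no overlap between the groups. VhaM9.7-a and VhaM9.7-d stood at mean signals of 4.04 and 4.10 in S2 control, inside the tag range, with log2 changes of -0.03 and 0.00 that did not pass. VhaM9.7-c overlaps CG18675 and Teh2 in the RefSeq annotation.

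The a subunit lines the proton path and decides in which membrane the pump works, and 5 genes encode it. Vha100-1, known in the fly for its work at synaptic vesicles, read 12.13, 12.15 and 12.13 in S2 control and 11.92, 11.91 and 11.89 in induced cells. The arrays within each group were nearly alike, and the gene fell by 0.23 (SE 0.05, adjusted p = 0.00575). Alg13 overlaps Vha100-1 in the annotation. Vha100-2, the other bright a gene, read 11.34, 11.37 and 11.33 in S2 control and 11.30, 11.24 and 11.28 in induced cells. All induced arrays were lower, but the log2 change of -0.07 (95% interval -0.18 to 0.03) did not pass (adjusted p = 0.313).

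Vha100-5 was the a gene that rose. It read 5.76, 5.61 and 5.77 in S2 control and 6.29, 6.14 and 6.14 in induced cells. Every induced array was above every control array, and the log2 change was 0.47 (SE 0.07, adjusted p = 0.000619), 1.39-fold. All 6 values lay inside the tag range, where background compresses changes, and asRNA:CR44144 overlaps the gene in the annotation. Vha100-4, known from the acid-secreting copper cells of the fly midgut, had a log2 change of -0.19 that did not pass (adjusted p = 0.0948), from 5.24 to 5.04. Vha100-3 stood at 4.26 and 4.29 (log2 change 0.03, adjusted p = 0.760).

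**Figure D3:**
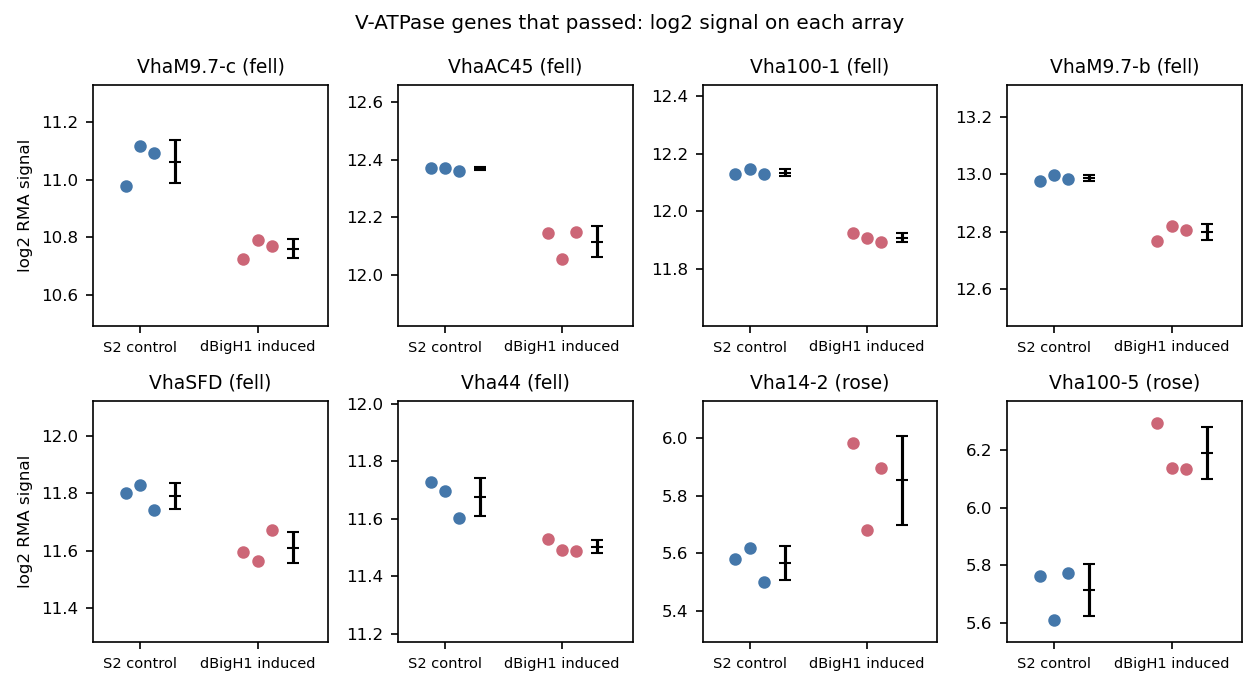
Log2 RMA signal on each array (points) with the mean and SD (n = 3, black) for the 8 V-ATPase genes that passed, each panel spanning the same range of log2 units around its own level. The groups do not overlap in any panel, and the induced arrays of Vha14-2 spread from 5.68 to 5.98.

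The c ring carries the protons, and 1 of its 7 measured genes came nearest to the threshold. Vha16-1, the c gene of the bright set, read 13.03, 13.08 and 13.00 in S2 control and 12.90, 12.87 and 12.89 in induced cells. The groups did not overlap, yet the log2 change of -0.15 (95% interval -0.26 to -0.04) just missed the threshold (adjusted p = 0.0503), passing under 4 of 14 other settings of the fit, and its dimmer probe set had a log2 change of -0.12 (adjusted p = 0.116). VhaPPA1-1, which encodes c″, read 12.58, 12.62 and 12.66 in S2 control and 12.60, 12.58 and 12.60 in induced cells. These overlapped, with a log2 change of -0.03 (95% interval -0.14 to 0.08). Vha16-4 had a log2 change of -0.17 from 5.19, inside the tag range (adjusted p = 0.0560), and passed under 4 of 13 other settings. Vha16-2, Vha16-3, Vha16-5 and VhaPPA1-2, further copies inside the tag range, had log2 changes of -0.04, -0.05, -0.0019 and 0.0039, and none passed. The d subunit couples the rotor to the ring. Its bright gene VhaAC39-1 had a log2 change of -0.09 (95% interval -0.21 to 0.04, adjusted p = 0.296), from 12.06 ± 0.0561 to 11.98 ± 0.0469 (SD, n = 3 each), and VhaAC39-2 stood at 5.65 and 5.64.

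In the V1 sector the regulatory subunits C and H fell, and the subunits of the head and rotor in the bright set did not pass. VhaSFD, the H subunit, which holds detached V1 silent, read 11.80, 11.83 and 11.74 in S2 control and 11.60, 11.57 and 11.67 in induced cells. It fell by 0.18 (SE 0.05, adjusted p = 0.0329), with no overlap between the groups, and mir-1006 overlaps the gene in the annotation. Vha44, the C subunit, which joins V1 to V0 and leaves when the sectors part, read 11.73, 11.70 and 11.60 in S2 control and 11.53, 11.49 and 11.49 in induced cells. It fell by 0.17 (SE 0.05, adjusted p = 0.0391), also with no overlap, and Hmgs overlaps it in the annotation.

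Vha55, the B subunit of the head, read 12.49, 12.57 and 12.45 in S2 control and 12.49, 12.46 and 12.52 in induced cells. These values overlapped fully, and the 95% interval of the log2 change was -0.14 to 0.11 around -0.01. Vha14-1, the F subunit of the rotor, had a log2 change of 0.02 (95% interval -0.09 to 0.13), the only value above 0 in the bright set apart from Vha55 after quantile normalisation or with array weights or without 1 array. Vha36-1, the D subunit of the rotor, had -0.08 (95% interval -0.19 to 0.04). The stalk genes Vha26 (E) and Vha13 (G) had log2 changes of -0.11 (adjusted p = 0.141) and -0.06 (adjusted p = 0.473), and neither passed, although in both the induced arrays were all below the control arrays. The intervals of several of these genes overlap those of the genes that fell, and differences between subunits were not tested.

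Vha14-2, a further F gene, rose. It read 5.58, 5.62 and 5.50 in S2 control and 5.98, 5.68 and 5.90 in induced cells, so the groups did not overlap although the lowest induced array was close to the highest control. The log2 change was 0.29 (SE 0.08, adjusted p = 0.0213), 1.22-fold, with all values inside the tag range. The further D genes Vha36-2 and Vha36-3 had log2 changes of -0.11 and -0.06 and did not pass. Vha68-3 stood at 3.73 and 3.78, inside the tag range.

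Accessory proteins help the pump to assemble and to reach its membrane. VhaAC45, the fly counterpart of Ac45 (ATP6AP1), read 12.37, 12.37 and 12.36 in S2 control and 12.14, 12.05 and 12.15 in induced cells. It fell by 0.25 (SE 0.05, adjusted p = 0.00470), 1.19-fold, and the groups did not overlap. Its relative VhaAC45RP stood at 3.66 and 3.60, inside the tag range. ATP6AP2, the other accessory protein of the pump, whose symbol keeps it out of the set, had a log2 change of -0.09 from 12.50 (adjusted p = 0.247).

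The 8 calls were not equally firm. At an adjusted p under 0.01, 3 V-ATPase genes fell and 1 rose, beside 10.7% and 8.99% of all genes. VhaM9.7-c, VhaAC45 and Vha100-1 passed under all 14 other settings of the fit that were tried, and Vha100-5 under all 13 that kept it. VhaM9.7-b passed under 12 of 14, VhaSFD under 9, Vha44 under 7 and Vha14-2 under 10 of 13. Without induced replicate 1, 3 V-ATPase genes fell and 1 rose. Without S2 control replicate 3 or without induced replicate 3, 1 rose, and it was Vha100-5.

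Genes that work with the pump were counted in lists of related pathways, to be read against the background of 14.5% of all genes that rose and 16.0% that fell. At an unadjusted p under 0.05 in limma, 2319 of all 11982 genes were higher and 2516 lower. Of the 6984 genes above the median signal, 1911 were higher and 1828 lower at that p. Most genes of each larger list stood above the median signal, where 21.1% of all genes rose and 21.3% fell. These were 10 of 12 lysosomal membrane, 14 of 20 hydrolase, 39 of 40 endocytic, 22 of 22 TORC1 and 13 of 16 ATP synthase genes. Of 3 measured genes for regulators and assembly factors (the rabconnectin Rbcn-3B, the transcription factor Mitf and CG5969), 0 passed in limma, with log2 changes of 0.15, 0.15 and 0.17. At an unadjusted p under 0.05, 2 were higher, Rbcn-3B and CG5969. Mitf had mean signals of 4.06 in S2 control and 4.21 in induced cells, inside the tag range. Of 12 measured genes for lysosomal membrane and export proteins 6 fell (50.0%), 0 rose and 6 did not pass, with a median log2 change of -0.18, and 7 were lower and 0 higher at an unadjusted p under 0.05. The amino acid transporter gene path fell by 1.26 (SE 0.08, adjusted p = 2.580e-06). The cholesterol exporter gene Npc1a fell by 0.51 (SE 0.06, adjusted p = 0.000123). The list's falls also include Npc2b, which encodes a soluble sterol-binding protein, and emp, which encodes a scavenger receptor of the CD36 family and whose mean signals of 5.92 and 5.35 lie inside the tag range. Of 20 lysosomal hydrolase genes 3 rose, 3 fell and 14 did not pass, with a median of -0.05. The alpha-mannosidase gene LManII rose by 1.89 (SE 0.06, adjusted p = 4.434e-08) and LManI by 2.24 (SE 0.08, adjusted p = 9.217e-08), the latter from a mean of 4.91 inside the tag range to 7.15, so that its size is uncertain, while the thiol reductase gene GILT1 fell by 0.62 and the acid phosphatase gene Acph-1 fell by 0.27.

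In the wider endocytic pathway, 2 of 40 measured genes rose, 8 fell and 30 did not pass, with a median log2 change of -0.03. The ESCRT-II gene lsn rose by 0.39 (adjusted p = 0.000742) and the retromer gene Vps29 by 0.17, while Vps39, a subunit of the HOPS tether, fell by 0.26 and or, an AP-3 adaptor subunit, fell by 0.27. Of 22 genes for TORC1 and its lysosomal regulators 2 rose, 2 fell and 18 did not pass. The transcription factor gene REPTOR rose by 0.40 and raptor by 0.16, while Lamtor5, a subunit of the Ragulator scaffold that binds the V-ATPase, fell by 0.21 and the GATOR1 gene Iml1 fell by 0.20. The F-type ATP synthase of mitochondria is the rotary relative of the pump that makes ATP in place of spending it. Of its 16 measured genes 3 rose (18.8%) and 0 fell in limma, beside 21.1% of all genes above the median signal that rose. At an unadjusted p under 0.05, 5 were higher and 0 lower, beside 1911 higher and 1828 lower of all 6984 genes above the median signal. ATPsynE rose by 0.23 (adjusted p = 0.00928) and ATPsynD by 0.19 (adjusted p = 0.0186). The list's median was 0.02, beside -0.06 for all 31 V-ATPase genes and -0.10 for the 16 above the median signal. Both lists thus differ in their share of dim genes. The difference between both lists was not tested.

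**Figure D4:**
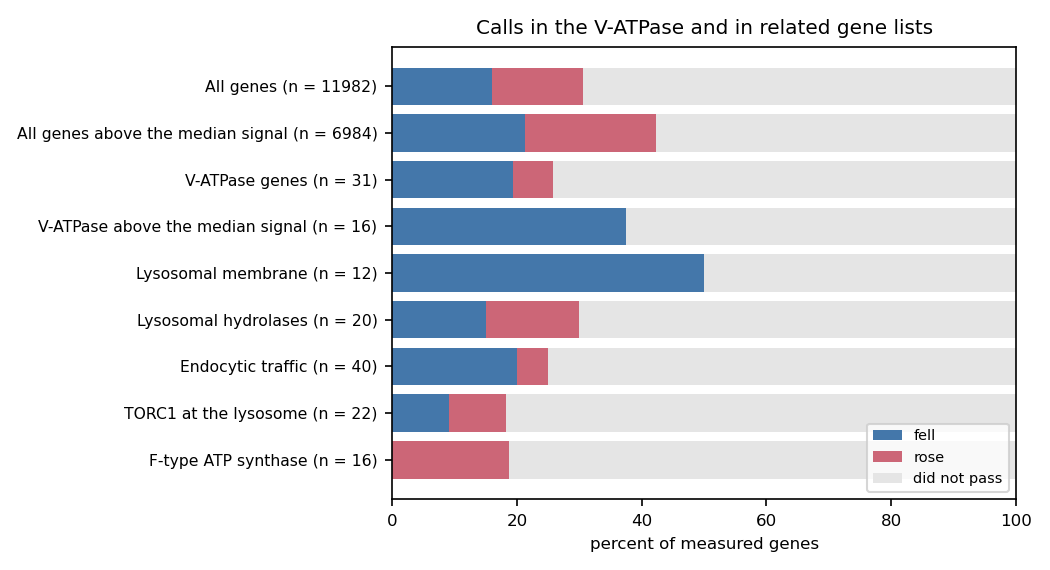
Share of measured genes (horizontal, percent) that fell, rose or did not pass in all genes, in the V-ATPase genes and in related lists, with the number of genes in brackets. The V-ATPase genes above the median signal hold falls only, 37.5%, and the genes of the lysosomal membrane list fell in 50.0%.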

How the data were processed

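Total RNA (25 ng per sample) of 3 S2 control and 3 induced samples was amplified with biotin label and hybridised, 1 array per sample. The authors deposited 1 log2 signal for each probe set and array, computed with RMA per the submitters' processing notes. RMA corrects background and equalises the arrays' distributions, which removes a change shared by all transcripts, and changes of dim or very bright probe sets are compressed. Its version is not given in the sources used here. Of 18952 probe sets, 183 controls were left out. The other 18769 entered a two-sided limma test (version 3.58.1 under R 4.3.3; lmFit, then eBayes) on group alone, and p-values were adjusted after Benjamini and Hochberg over this whole table. All adjusted p-values come from this fit, which was also run on simulated data. The simulated data held far fewer changed probe sets than passed here, so that run does not measure how firm these calls are. The platform annotation named 1 gene for 13647 probe sets, several for 402 and none here for 4720. Symbols were updated through RefSeq's Release 6 gene table for 13544, and its gene order alone was used. A gene was represented by its brightest probe set. Of the member probe sets, 7 carry s in their names and may share transcripts between genes. They are those of Vha100-1, Vha44 and VhaAC45, which fell, and of Vha100-2, Vha16-1, Vha26 and Vha55, which did not pass. Members and lists were chosen with earlier results of these data known. All members were named, and of each other list up to 2 passing genes per direction by smallest adjusted p; Npc2b and emp were chosen after their values were seen. The cut at a signal of 10 was also set after the values were seen. With 3 arrays a group, the smallest p of an exact permutation test is 0.1, so none was run. The number of arrays limits the precision.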

Additional observations from a re-analysis of the deposited data

How the results depend on the processing

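The 6 falls and 2 rises of V-ATPase genes were recomputed with other scalings, moderation, array weights, probe set rules and thresholds and with 1 array left out at a time. With dim probe sets left out, 0 V-ATPase genes rose (limma; 0 higher at an unadjusted p under 0.05), since both genes that rose are dim. With an adjusted p under 0.01, 1 rose and 3 fell, and of all genes 1077 rose. Leaving out 1 array gave 1 to 2 rises and 3 to 7 falls. Of all genes, 1285 to 1554 rose and 1526 to 1805 fell with 1 array left out, below the 1739 and 1918 of all 6 arrays. Centring on ribosomal protein genes, trended robust moderation and array weights each gave 2 rises and 8 falls. Of all genes, 2121, 2139 and 2009 fell under these settings. With the replicate number as a block, 2 rose and 4 fell, beside 1549 and 1727 of all genes. Deviations of same-numbered arrays correlated at 0.04, -0.10 and 0.01, so the numbers were not taken to pair the samples, and not every array correlated best with its own number. Of 419 results of single genes under other settings, 370 kept direction and side of the threshold. Another 17 no longer passed, 9 newly passed and 23 changed sign, all 23 in genes that did not pass. Leaving out dim probe sets, other moderation and the replicate block alter only the p-value, so direction was kept there by construction. The same holds for averaging probe sets, except in Vha16-1. The changes of sign were those of Vha16-5 (0.0013 on array medians, 0.0026 after quantile normalisation, 0.053 with array weights), Vha55 (0.0072 after quantile normalisation, 0.00062 with array weights), VhaAC39-2 (0.0059 after quantile normalisation), VhaM9.7-d (-0.013 on ribosomal protein genes, -0.0100 with array weights) and VhaPPA1-2 (-0.014 on ribosomal protein genes). With 1 array left out, the log2 change ran from -0.091 to 0.12 for Vha16-5, -0.041 to 0.022 for Vha55, -0.025 to 0.0096 for VhaAC39-2, -0.032 to 0.032 for VhaM9.7-d, -0.052 to 0.052 for VhaPPA1-2, -0.13 to 0.039 for Vha16-2 and -0.010 to 0.094 for Vha100-3. The cause of the other shifts was not tested.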
